A study of Arabidopsis thaliana with 12 samples.

Results

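Transcript levels in rosette leaves of 2 reciprocal F1 hybrids of Arabidopsis thaliana were compared with those of both parents at dawn, zeitgeber time 0 (ZT0). The 4 libraries were the accession Columbia (Col), the accession C24, the hybrid ColxC24 with Col as the seed parent and the hybrid C24xCol with C24 as the seed parent. They were 4 of the 12 libraries of the series, which also sampled the same 4 genotypes at ZT6 and ZT15. Plants were 3 weeks old and not yet bolting, and they grew on soil without further treatment under 16 h of light at 22 °C and 8 h of dark at 20 °C. Each genotype had 1 library at each time. Differences between single plants or preparations therefore cannot be told apart from differences between genotypes, and no test was possible within ZT0. Of 32592 loci in the files, 16871 had an average of at least 1 RPKM over the 4 libraries and were kept. RPKM counts reads by transcript length and by library size.

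An F1 hybrid carries 1 genome from each parent, so an additive gene is expected near the mean of the parents, the mid-parent. Hybrid vigour, or heterosis, is the growth of such a plant beyond its parents, and hybrids between Col and C24 are a much used model of it in leaves. Dawn is the end of the night, when leaf starch reserves run low and the morning genes of the circadian clock are high. By its title, the series deals with natural variation and heterosis, and with when stress responses occur. A hybrid was set against the range of both parents, the most demanding comparison, and against their linear mean. In the text, a locus is counted above or below only where both hybrids are at least 1.5-fold away on the RPKM + 1 scale, and a departure is log2(RPKM + 1) of the hybrids, averaged over both, minus that of the mid-parent.

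The estimated depth was 16.8 M reads (Col), 23.1 M (C24), 24.8 M (ColxC24) and 26.05 M (C24xCol), so 1 read on 1 kb of transcript was worth 0.0384 to 0.0596 RPKM. Levels of about 1 RPKM thus rest on few reads, and their counting error alone is wide. Markers of photosynthetic leaf tissue were abundant: RBCS1A, a small subunit of Rubisco, was at 26373 to 36762 RPKM. The 4 leaf vein and guard cell markers SUC2, FMA, MYB60 and KAT1 all had a departure under 0 (73.4% of all loci). Their median was -0.24, against -0.13 for all loci, and their part in the results was not tested. The seed markers CRU1, CRU3, SESA1, OLEO1 and LEC2 stayed at or below 0.0848 RPKM, and the flower markers AP1, AP3 and PI at or below 0.109. Of the other flower markers, AG was at 0.817 (Col), 0.538 (C24), 0.975 (ColxC24) and 1.25 RPKM (C24xCol) and SEP3 at 0.347, 0.806, 0.987 and 1.31, both highest in the hybrids; their part in the results was not tested. Of the root markers, PLT1 was listed at 0 in the 4 libraries, while SCR and SHR, which leaves also express, were at 10.08 to 17.3 RPKM.

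Few loci lay outside the parental range in both hybrids. Above the higher parent were 10 loci (0.0593% of 16871), and below the lower parent were 58 (0.344%). Against the mid-parent, 47 loci (0.279%) were above and 608 (3.6%) were below. The median departure of the 16871 loci was -0.13, and 73.4% of them were below 0. The direction of small departures thus depends on how libraries are scaled. With median-of-ratios factors the median became -0.02, with 23 loci above and 31 below both parents and 92 above and 411 below the mid-parent. With quantile normalization it was -0.00, with 24 above and 24 below both parents. All 10 loci above both parents were also found under both scalings, whereas 31 of the 58 below remained under the first and 24 under the second. In bulk leaf tissue, fewer cells of a type and less RNA per cell cannot be told apart.

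The 10 loci above both parents included 2 transporter genes, 1 XTH gene and 2 SAUR-like genes. XTH33, an enzyme of the family that cuts and rejoins xyloglucan in the cell wall, was at 7.53 (Col), 7.67 (C24), 22.0 (ColxC24) and 17.63 RPKM (C24xCol). The lower hybrid was 2.15-fold above the higher parent. SWEET17, a fructose carrier of the vacuole membrane, was at 19.3 and 19.9 RPKM in Col and C24 and at 37.3 and 41.5 in ColxC24 and C24xCol. Both genes had nearly equal parents, so the hybrids stood apart from both by about the same amount.

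SULTR4;2, a vacuolar sulfate exporter, was at 2.99 (Col), 3.03 (C24), 6.23 (ColxC24) and 6.34 RPKM (C24xCol). Of the SAUR family, small transcripts known for their response to auxin, SAUR29 was at 13.1, 11.3, 23.0 and 25.1 RPKM in the same order, and AT2G21220 at 3.91, 5.60, 12.5 and 13.5. In each of these 3 genes the hybrids lay close together. That they did not overlap with the parents follows from the rule that chose the loci. ESE3, an AP2/ERF-type DNA-binding protein, was at 8.22 (Col), 5.98 (C24), 14.8 (ColxC24) and 13.7 RPKM (C24xCol). The uncharacterized AT5G65580 had the widest gap upward, with 1.41 and 1.23 RPKM in Col and C24 and 5.27 and 7.09 in the hybrids. Of the other loci, AT5G22270 was at 4.71 and 4.50 RPKM in the parents and at 8.56 and 9.46 in the hybrids, and AT5G53905 was under 0.5 RPKM in both parents and at 1.86 and 2.68 in the hybrids. AT2G07732, annotated with a Rubisco large chain domain, was nearest to the limit at 1.57-fold, with 0.157 and 0.184 RPKM in the parents, 0.865 in ColxC24 and 3.93 in C24xCol. Its reads may be shared with the near-identical chloroplast gene, so its value is uncertain. AT5G53905 and AT2G07732 were kept only through their level in the hybrids, so their calls carry no weight under any of the scalings. Just outside the limit was AT1G15825, at 1.49-fold. C24xCol was the higher hybrid in 8 of the 10, and over all loci at 9618 against 7253 for ColxC24.

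**Figure D1:**
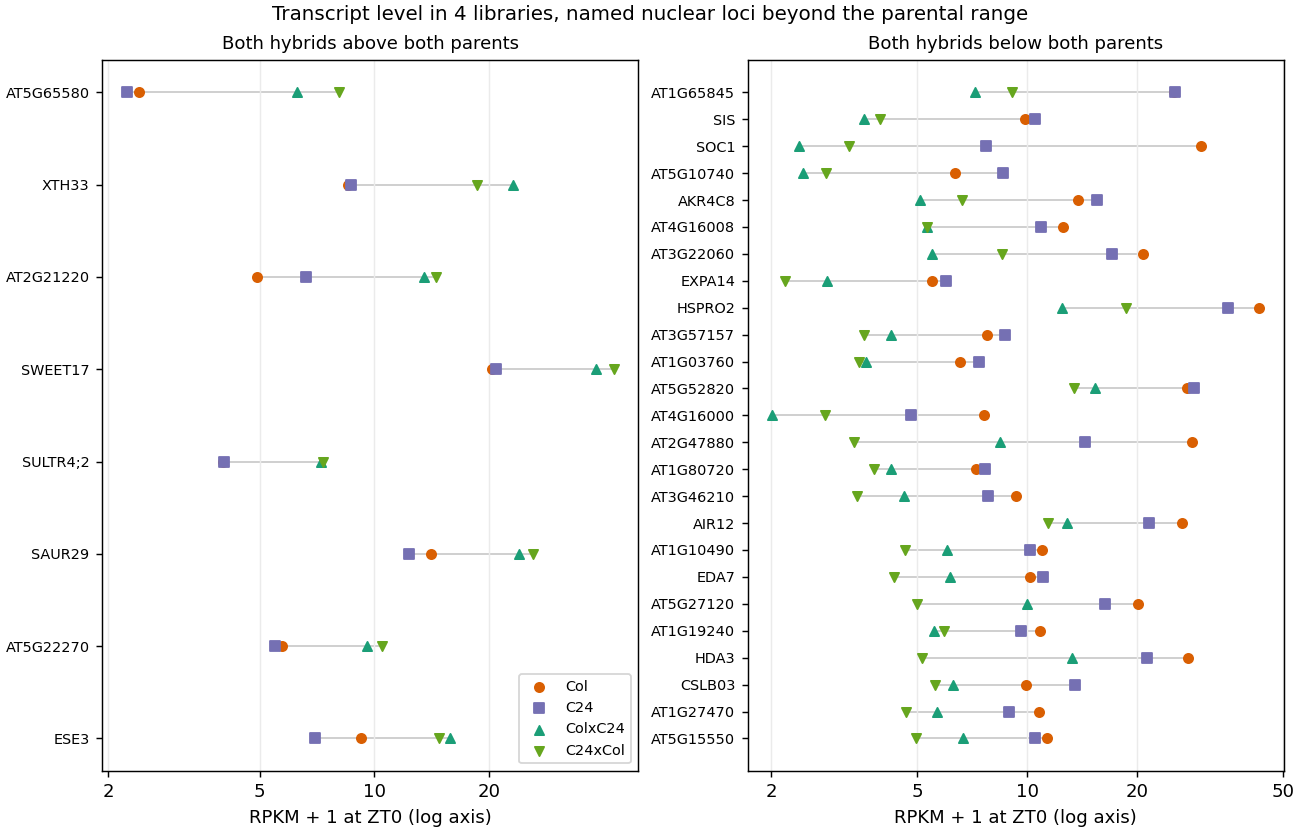
RPKM + 1 at ZT0 on a log axis, 1 point per library, for the named nuclear loci (3 RPKM or more on average). On the left both hybrids are above both parents, as in XTH33 (17.63 and 22.0 RPKM against 7.53 and 7.67); on the right both are below, as in SOC1 (1.38 and 2.27 RPKM against 6.70 and 28.9).

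Among the 58 loci below both parents, SOC1 had the largest departure of the nuclear ones. SOC1 (AGAMOUS-like 20) is a MADS-box gene that promotes flowering, and it was at 28.9 (Col), 6.70 (C24), 1.38 (ColxC24) and 2.27 RPKM (C24xCol). The lower parent was 2.35-fold above the higher hybrid, and the departure was -2.75. AGL8, also called FRUITFULL, another MADS-box gene that promotes flowering, was at 4.82, 2.63, 1.29 and 1.12 RPKM in the same order. In both genes Col was the highest library, and the hybrids were the lowest by the rule that chose the loci. With median-of-ratios factors SOC1 was still counted below both parents and AGL8, at 1.48-fold, was not.

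Some of the 58, picked after their values were seen, have products known from the nucleolus or RNA processing, although of the 46 loci whose annotated product names rRNA, the nucleolus or ribosome biogenesis 0 were among them. HDA3, a plant-specific histone deacetylase of the nucleolus, was at 26.5 (Col), 20.3 (C24), 12.3 (ColxC24) and 4.16 RPKM (C24xCol). AT5G27120, a NOP56-like protein of small nucleolar ribonucleoproteins, was at 19.1, 15.3, 8.98 and 4.02 RPKM. AT5G52820, the notchless protein of large ribosomal subunit assembly, was at 26.3, 27.5, 14.4 and 12.4 RPKM. In these genes C24xCol was the lowest library. The RNA helicase gene PRH75 was at 95.7 and 81.5 RPKM in Col and C24 and at 51.8 and 47.4 in ColxC24 and C24xCol. AT3G03920, a Gar1-like subunit of the H/ACA particles that guide pseudouridylation, was at 56.2 and 53.5 RPKM in the parents and at 34.7 and 26.9 in the hybrids. The helicase gene STRS2 was at 20.3 and 17.0 RPKM in the parents and at 10.8 and 7.96 in the hybrids. RPC14, a small subunit of RNA polymerase, had the narrowest gap counted, 1.502-fold, with 7.19, 7.49, 4.46 and 3.07 RPKM in Col, C24, ColxC24 and C24xCol. Of these 7 genes only AT5G52820 was also counted below both parents under either other scaling. With median-of-ratios factors the gap was 1.41-fold in PRH75, 1.45-fold in HDA3, 1.48-fold in AT5G27120 and 1.38-fold in STRS2. C24xCol was the lower hybrid in 37 of the 58, and over all loci at 7253 against 9618 for ColxC24.

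Other genes below both parents, also picked after their values were seen, are given next. HSPRO2, a gene of basal resistance named for a sugar beet nematode resistance gene, was at 42.1 (Col), 34.4 (C24), 11.5 (ColxC24) and 17.58 RPKM (C24xCol). AKR4C8, an aldo-keto reductase, was at 12.8, 14.6, 4.11 and 5.66 RPKM in the same order. SIS was at 8.85, 9.48, 2.58 and 2.96 RPKM, a gap of 2.49-fold. In these 3 genes the parents lay close together and the hybrids far below them. The expansin genes EXPA9 and EXPA14, whose products loosen cell walls, were at 15.8 and 4.51 (Col), 9.09 and 5.01 (C24), 5.43 and 1.85 (ColxC24) and 5.26 and 1.18 RPKM (C24xCol). The cellulose synthase-like gene CSLB03 was at 8.94 and 12.5 RPKM in Col and C24 and at 5.27 and 4.60 in the hybrids. EXPA9 and CSLB03 were no longer counted under either other scaling, while HSPRO2, AKR4C8, SIS and EXPA14 were. AT1G65845, an uncharacterized locus, had the widest nuclear gap with 24.1, 24.3, 6.19 and 8.09 RPKM.

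Of the 58, 54 were nuclear and 4 were chloroplast loci, for which the annotation used here gave no name. ATCG01160 was at 187 (Col), 312 (C24), 7.51 (ColxC24) and 67.3 RPKM (C24xCol). ATCG01170 was at 129, 131, 10.2 and 45.0 RPKM in the same order. ATCG00970 was at 187, 130, 6.84 and 68.0 RPKM, with the same value as ATCG01160 in Col and similar ones in the hybrids. Whether these loci share reads, and so count 1 signal more than once, was not tested. In each of the chloroplast loci named here, ColxC24 was far below the other libraries. Summed chloroplast RPKM was lowest in the same library, at 0.453% (Col), 0.644% (C24), 0.303% (ColxC24) and 0.939% (C24xCol) of all RPKM, and its part in these values was not tested.

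Most loci that differed strongly between the parents had hybrid levels under the mid-parent, but many of them were not counted below it by the 1.5-fold rule. C24 was at least 4-fold above Col at 363 loci (2.15%) and Col at least 4-fold above C24 at 209 (1.24%). On a linear scale where 0 is the lower and 1 the higher parent, the C24-high loci had a median position of 0.09 in ColxC24 and 0.23 in C24xCol. The Col-high loci had medians of 0.37 and 0.40. In 323 of the 363 loci ColxC24 was under 0.5, and in 317 C24xCol was. Both hybrids were below the mid-parent by the 1.5-fold rule at 203 of the 363 C24-high and 40 of the 209 Col-high loci, and above it at 5 and 3. Of all 608 loci below the mid-parent, C24 was at least 1.5-fold above Col at 354 and Col above C24 at 121.

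These positions use the same libraries that chose the loci, so the parent that happened to be high in its library is favoured in the choice. Loci chosen instead by a 4-fold difference at both ZT6 and ZT15 did not have this difference between C24-high and Col-high loci at ZT0. There were 79 such C24-high loci, with a median hybrid level of 0.819 of the mid-parent in ColxC24 and 0.851 in C24xCol. The 131 Col-high loci had medians of 0.810 and 0.829. By the choice at ZT0 these medians were 0.332 and 0.556 for C24-high loci and 0.764 and 0.804 for Col-high loci. Of the 363 C24-high loci at ZT0, 82 were also 4-fold apart at ZT6, 163 at ZT15 and 70 at both. Of the 209 Col-high loci, 99 were at both.

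**Figure D2:**
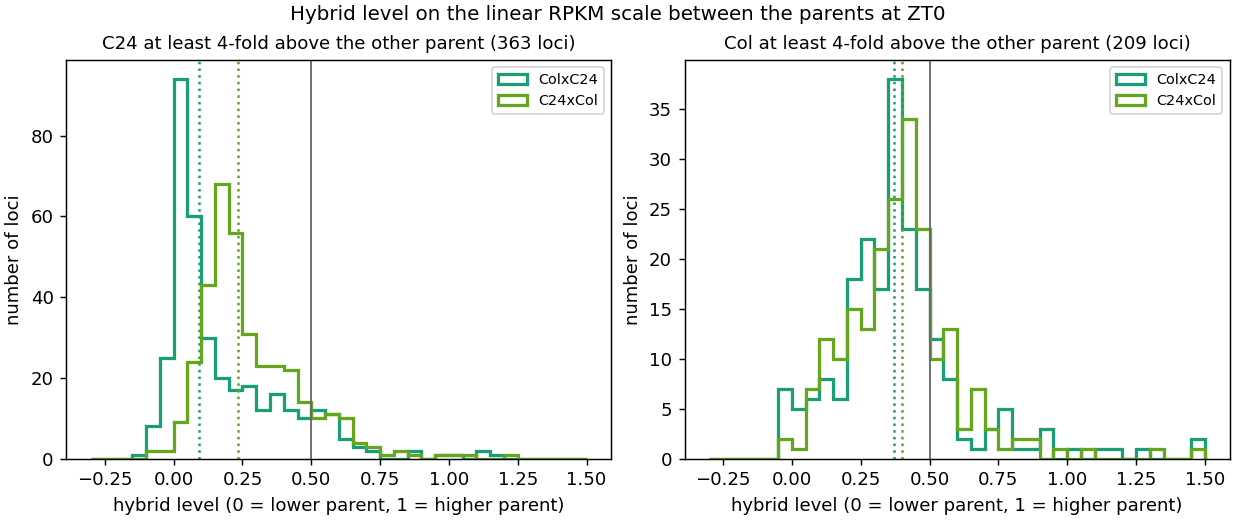
Number of loci by the hybrid's level on the linear RPKM scale between the lower parent (0) and the higher parent (1) at ZT0, with dotted lines at the medians and values beyond the axis drawn in its end bins. Where C24 was higher the medians are 0.09 and 0.23, and where Col was higher they are 0.37 and 0.40.

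At 37 loci both hybrids were within 1.5-fold of the lower parent, 33 of them C24-high, and at 19 both were within 1.5-fold of the higher parent. Some of the 37 were kept only through the higher parent, such as IQD27 at 0.0564 (Col), 4.47 (C24), 0.229 (ColxC24) and 0.364 RPKM (C24xCol). On RPKM + 1, hybrids near 0 are within 1.5-fold of a parent near 0 by construction. The count of 37 and its C24-high part therefore carry little weight. The hybrids shared the Col level of RLP37, a receptor-like protein gene, at 3.71 (Col), 27.0 (C24), 4.26 (ColxC24) and 5.63 RPKM (C24xCol). SAG13, an early senescence gene, was at 1.35, 13.8, 1.41 and 2.21 RPKM, and GLIP5, a GDSL lipase gene, at 1.12, 15.7, 1.34 and 2.1004. At the level of the higher parent was FLC, a repressor of flowering, with 0.139 (Col), 94.0 (C24), 83.6 (ColxC24) and 91.6 RPKM (C24xCol). ESP, the epithiospecifier protein that turns glucosinolate breakdown towards nitriles, was at 19.3, 2295, 1581 and 1643 RPKM. ECS1, a cell wall protein gene, was high in the other parent, with 1157 (Col), 7.35 (C24), 843 (ColxC24) and 816 RPKM (C24xCol). On the linear scale from the lower to the higher parent, FLC was at 0.89 in ColxC24 and 0.98 in C24xCol, near the high parent. ESP was at 0.69 and 0.71 and ECS1 at 0.73 and 0.70. These 2 genes were thus also within 1.5-fold of the mid-parent in both hybrids.

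Genes of salicylic acid signalling and biotic defence, which protect leaves against biotrophic pathogens at a cost to growth, were the list furthest below the mid-parent. Of 32 kept members, 0 were above (0.279% of all loci) and 22 below (3.6% of all loci), with a median departure of -1.31 (-1.60 in ColxC24 and -0.80 in C24xCol) against -0.13 for all loci. The median was -1.19 with median-of-ratios factors and -1.24 with quantile normalization. C24 was at least 1.5-fold above Col in all 32 and at least 4-fold in 22. Both hybrids were between the parents in 22 of the 32 (30.1% of all loci). By any amount they were above both in 0 (6.34% of all loci) and below both in 0 (24.6% of all loci). These members thus had a mid-parent set largely by C24, and the list was chosen with earlier results of these data known. The share over all loci is therefore not the closest comparison. Of the 2214 loci with C24 at least 1.5-fold above Col, 354 were below the mid-parent. Of the 363 with C24 at least 4-fold above Col, 203 were.

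Of the enzymes and regulators of salicylic acid, ICS1, the main synthase of its precursor, was at 3.23 (Col), 24.5 (C24), 7.63 (ColxC24) and 7.06 RPKM (C24xCol). PBS3, which conjugates that precursor, was at 2.14, 12.7, 1.798 and 2.41 RPKM. EDS1 and PAD4, lipase-like proteins that act together upstream of salicylic acid, were at 7.27 and 18.4 (Col), 51.3 and 73.4 (C24), 8.29 and 16.6 (ColxC24) and 11.8 and 26.1 RPKM (C24xCol). In these genes the hybrids were far nearer to Col than to C24. SARD1, a transcription factor that activates ICS1, was at 4.13, 46.0, 5.83 and 13.9 RPKM, with C24xCol clearly above ColxC24.

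Downstream genes had the widest departures. PR5, a thaumatin-like protein, was at 12.8 (Col), 257 (C24), 30.4 (ColxC24) and 35.2 RPKM (C24xCol). PNP-A, a secreted natriuretic-like peptide, was at 1.301, 140, 6.22 and 11.4 RPKM, a departure of -2.93. LURP1, a gene of resistance to Hyaloperonospora, was at 14.2, 753, 49.8 and 135 RPKM. In PNP-A and LURP1 the order of the 4 libraries was Col, ColxC24, C24xCol and C24 from low to high. DMR6, an oxygenase that breaks down salicylic acid, was at 10.4, 165, 14.8 and 30.9 RPKM. NIMIN2, a partner of the salicylic acid receptor NPR1, was at 0.558, 27.4, 1.06 and 5.25 RPKM, and NPR1 itself was at 12.8, 25.4, 8.93 and 13.5, which did not reach 1.5-fold below the mid-parent in both hybrids. WRKY38 was listed at 0 in Col, with 15.02 RPKM in C24, 0.437 in ColxC24 and 2.42 in C24xCol. It was kept only through its level in C24, which also sets its mid-parent. AIG1 alone of the 32 was above the mid-parent, at 0.533, 2.03, 1.28 and 2.33 RPKM, and did not reach 1.5-fold in both hybrids.

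The reciprocal hybrids differed in this list. C24xCol was higher than ColxC24 in 30 of the 32 members, and ColxC24 was within 1.5-fold of Col in 22 but C24xCol in 8. PCC1, a small membrane protein gene of defence, was at 161 (Col), 2456 (C24), 426 (ColxC24) and 797 RPKM (C24xCol). ACD6, a membrane protein that raises defence and lowers growth, was at 43.1, 438, 55.3 and 167 RPKM. PR1 went the other way, with 32.5 RPKM in ColxC24 and 24.8 in C24xCol. Over all loci, C24xCol was higher at 9618 and ColxC24 at 7253, and the hybrids were at least 1.5-fold apart at 1245 loci (7.38%), 785 of them higher in C24xCol. Since 1 library stands for each cross, the direction of the cross and the library cannot be told apart.

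**Figure D3:**
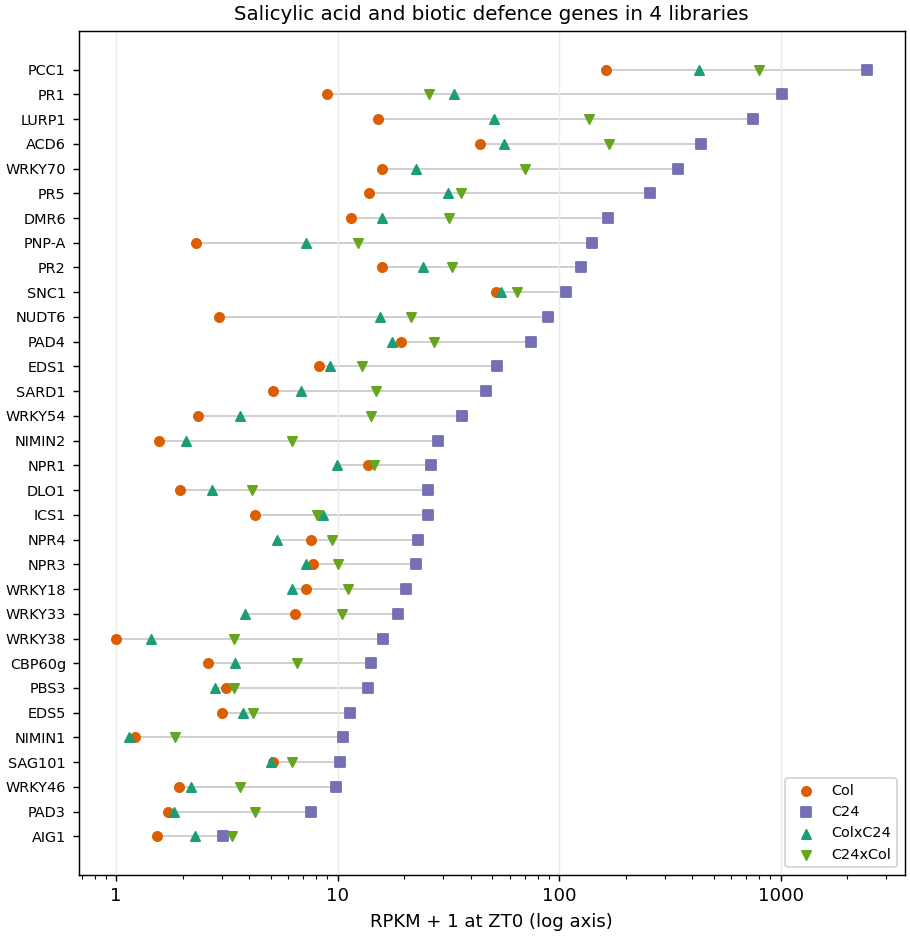
RPKM + 1 at ZT0 on a log axis for the 32 kept members of the salicylic acid and biotic defence list, 1 point per library, ordered by the level in C24. C24 is the highest library in 31 members, and C24xCol is above ColxC24 in 30.

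Senescence and sugar starvation genes, which mark ageing or carbon-poor leaves, had a minority of members below the mid-parent. Of 13 senescence genes, 0 were above and 4 below the mid-parent (0.279% and 3.6% of all loci), with a median of -0.54. NAP, a NAC transcription factor that drives leaf ageing, was at 12.6 (Col), 8.47 (C24), 2.09 (ColxC24) and 5.97 RPKM (C24xCol). Its hybrids were below both parents, although C24xCol by less than 1.5-fold. Of 11 sugar starvation genes, 0 were above and 4 below (0.279% and 3.6% of all loci), with a median of -0.44 and 3 departures above 0. There Col was the high parent: BXL1, a beta-xylosidase, was at 277, 25.4, 39.5 and 71.5 RPKM, DIN10, a raffinose synthase-like gene induced by darkness, at 175, 12.1, 34.9 and 51.8, and DRM1, a dormancy-associated gene, at 32.3, 5.73, 6.03 and 9.33. The hybrids lay above C24 and nearer to it than to Col in these 3 genes. SEN1, another gene induced by darkness, was lowest in the hybrids, by less than 1.5-fold in C24xCol, with 5.44, 1.62, 0.355 and 0.970 RPKM.

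With the mid-parent taken on the log2 scale, where it is lower if parents differ widely, the loci below it were 294 and those above it 151. BXL1, DIN10, DRM1, LURP1, PNP-A, WRKY70, JMT and CO then no longer reached 1.5-fold in both hybrids.

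Of 10 genes of the rapid response to touch and stress, 0 were above and 1 below the mid-parent (0.279% and 3.6% of all loci). All 10 had a departure under 0 (73.4% of all loci). With median-of-ratios factors and with quantile normalization 9 of them did (54.3% and 50.9% of all loci). TCH2, a calmodulin-like gene, was at 32.4 (Col), 22.2 (C24), 18.4 (ColxC24) and 16.5 RPKM (C24xCol). BAP1, an inhibitor of cell death, was at 0.387, 3.62, 0.481 and 0.208 RPKM, and was the member counted below. It was kept only through its level in C24, which also sets its mid-parent, so its call carries no weight.

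Few photosynthesis genes were counted. All 20 kept light-harvesting antenna genes, which encode the chlorophyll-binding proteins of both photosystems, had a departure above 0, with a median of 0.36, but only 1 was counted above the mid-parent (0.279% of all loci). With median-of-ratios factors 20 were above 0 with a median of 0.48, and with quantile normalization 19 with a median of 0.21. LHCB2.2 was the gene counted, at 149 (Col), 611 (C24), 590 (ColxC24) and 631 RPKM (C24xCol). LHCB1.1 was at 1460, 3230, 3763 and 3458 RPKM, and LHCB1.4 at 471, 666, 1039 and 690. Both hybrids were above both parents by any amount in 11 of the 20 (6.34% of all loci). That share of all loci was 14.3% with median-of-ratios factors and 15.2% with quantile normalization, so it depends on the scaling. Near-identical copies within the LHCB1 and LHCB2 genes may share reads, so single members are uncertain.

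Of 37 genes of the photosystems and the Calvin cycle, 0 were above or below by the 1.5-fold rule. Their median departure was 0.20 with 36 of 37 above 0, and 0.33 with 36 above 0 with median-of-ratios factors. Under quantile normalization it was 0.02, with 20 above 0 and 15 below, so the departure of this list depends on the scaling. Quantile normalization gives equal ranks the same value in every library, and RBCS1A had a departure of 0 there by construction. RBCS1A was at 26373 (Col), 30619 (C24), 36762 (ColxC24) and 35257 RPKM (C24xCol). FD2, the main leaf ferredoxin, was at 5729, 5755, 7173 and 6970.2 RPKM. The lists of antenna and photosystem and Calvin cycle genes together took 21.2% (Col), 22.6% (C24), 26.5% (ColxC24) and 25.5% (C24xCol) of all RPKM. The defence list took 0.0512, 0.760, 0.0962 and 0.181%. Of 22 chlorophyll biosynthesis genes, 0 were above or below, with a median of 0.09.

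Of 19 starch degradation genes and 16 starch synthesis genes, 0 were above or below by the rule, with medians of 0.11 and 0.03. BAM3, the main beta-amylase of leaf starch breakdown, was at 1697 (Col), 1139.5 (C24), 1007 (ColxC24) and 1106 RPKM (C24xCol). PHS1, a plastid starch phosphorylase, was at 9.70, 27.1, 29.5 and 22.8 RPKM. Of 17 sugar transport genes, 1 was above (SWEET17) and 2 below (0.279% and 3.6% of all loci). Those below were SUC1, a sucrose carrier, at 63.4, 76.6, 37.3 and 45.5 RPKM, and STP13, a hexose carrier, at 0.987, 6.81, 0.891 and 1.23. The median of this list was -0.08 as deposited and 0.04 with median-of-ratios factors, so it has no set direction. SUC1 no longer reached the rule under either other scaling.

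Flowering genes were split. Of 16, 1 was above the mid-parent (FLC) and 3 below (0.279% and 3.6% of all loci): SOC1, the photoperiod regulator CO and the florigen gene FT. FLC is known to repress both FT and SOC1, and CO to activate FT. FT was at 4.39 RPKM in Col and at 0.101, 0.0472 and 0.0899 in C24, ColxC24 and C24xCol. CO was at 9.51, 3.51, 3.76 and 3.09 RPKM in Col, C24, ColxC24 and C24xCol. FT was kept only through its level in Col, and the other 3 libraries rest on too few reads to compare. FLC and CO of the hybrids were near the C24 level, while SOC1 was below it. CO no longer reached the rule under either other scaling. With only the gene model of the highest mean for each locus, neither CO nor FLC reached the rule, and the departure of FLC was 0.34. MAF1, a relative of FLC, was near the mid-parent with 26.9, 1.69, 13.2 and 13.3 RPKM.

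Of 29 glucosinolate genes, which make and break the mustard oil defence compounds of the family, 0 were above or below, with a median of 0.10. Both hybrids lay between the parents in 20 (30.1% of all loci). MAM3, a chain elongation synthase, was at 0.795 (Col), 102 (C24), 56.7 (ColxC24) and 60.97 RPKM (C24xCol). ESM1, a modifier of the epithiospecifier protein, was at 446, 15.1, 358 and 273 RPKM. In both genes the hybrids lay between the parents in spite of a wide parental difference. From the lower parent (0) to the higher (1), ColxC24 and C24xCol were at 0.55 and 0.59 for MAM3 and at 0.80 and 0.60 for ESM1. CYP79B2, an enzyme of the tryptophan-derived branch, was lowest in C24xCol, with 13.2, 17.0, 13.4 and 4.53 RPKM.

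Among 27 cell wall genes of the XTH and expansin families, 2 were above and 0 below the mid-parent (0.279% and 3.6% of all loci), with a median of 0.03. XTH7 was at 160 (Col), 70.2 (C24), 190 (ColxC24) and 179 RPKM (C24xCol), and XTH33 is given above. EXPA5, which was not counted, was at 68.8, 57.1, 91.8 and 98.5 RPKM. Of 15 genes of auxin, elongation and organ size, 0 were above and 1 below (0.279% and 3.6% of all loci). That was HFR1, a light-signalling factor, at 4.09, 1.25, 0.934 and 1.17 RPKM. EXPA9 and EXPA14, the expansins below both parents, were not in the list.

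Of 21 jasmonate and wounding genes, 0 were above and 3 below (0.279% and 3.6% of all loci), with a median of -0.21. PDF1.2, a plant defensin, was at 3.95 (Col), 20.9 (C24), 3.12 (ColxC24) and 3.33 RPKM (C24xCol). TAT3, a tyrosine aminotransferase induced by wounding, was at 3.27, 12.3, 2.70 and 3.93 RPKM, and JMT, the jasmonate methyltransferase, at 16.2, 1.01, 4.17 and 2.298. JMT lost its call with the log2 mid-parent, at a departure of -0.51. Of 13 cold response genes, 0 were above and 2 below (0.279% and 3.6% of all loci): ERD10, a dehydrin, at 28.5, 47.1, 23.5 and 17.43 RPKM, and RD29A, at 3.31, 1.86, 0.808 and 0.922. The abscisic acid (18 kept), ethylene (13), heat shock (10), oxidative stress (14), phenylpropanoid (11), nitrogen assimilation (13), DNA methylation and small RNA (22), morning clock (7) and evening clock (11) lists had 0 members above and 0 below. Their medians lay between -0.26 (abscisic acid) and 0.12 (phenylpropanoid).

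The clock genes CCA1 and LHY, which peak at dawn, were at 202 and 582 (Col), 198 and 459 (C24), 188 and 444 (ColxC24) and 233 and 489 RPKM (C24xCol). Their hybrids thus stood within or close to the parental range. TOC1, an evening gene of the clock, was at 4.998, 14.9, 7.31 and 9.60 RPKM, between the parents in both hybrids. The copper and zinc superoxide dismutase genes CSD1 and CSD2 were high in C24xCol alone, with 63.4 and 98.2 (Col), 74.3 and 86.9 (C24), 59.2 and 98.6 (ColxC24) and 166 and 266 RPKM (C24xCol). They were named after their values were seen.

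**Figure D4:**
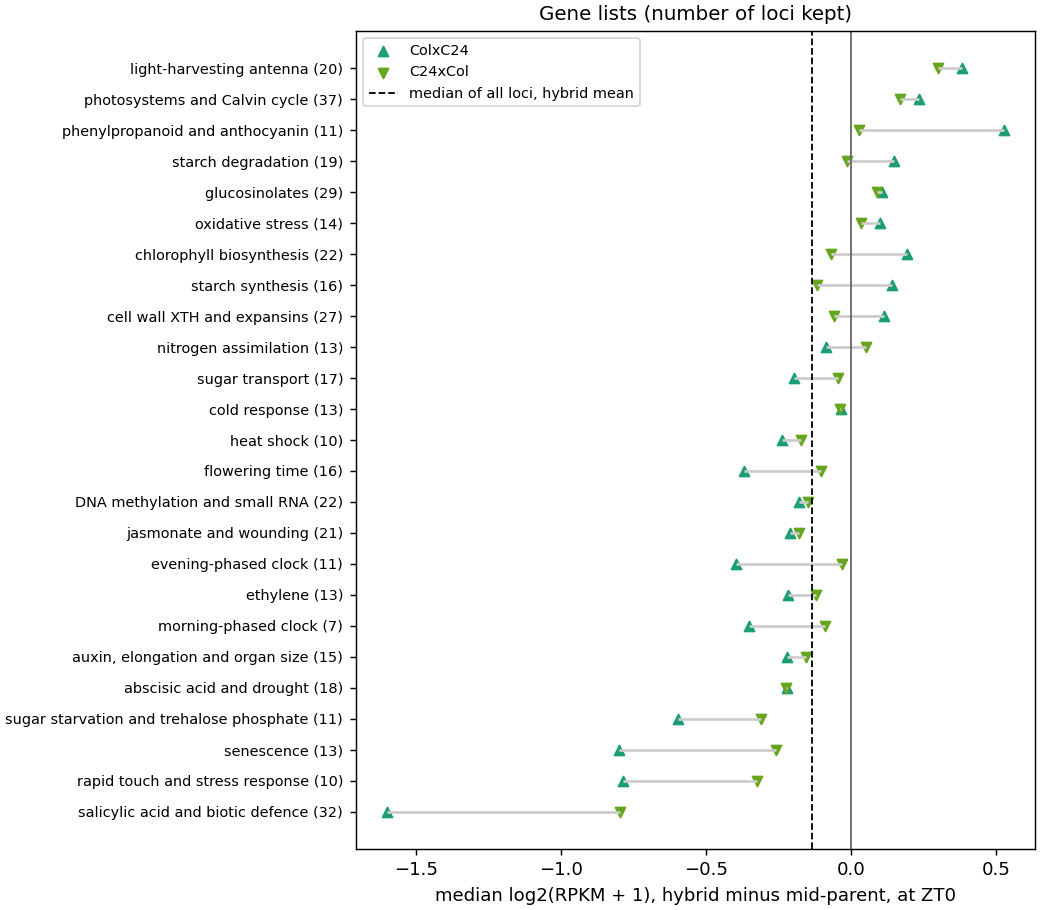
Median log2(RPKM + 1) of each hybrid minus the mid-parent over the kept members of 25 gene lists at ZT0, with the number kept in brackets. The dashed line is the median of all 16871 loci (-0.13), and the defence list is the furthest below it (-1.60 and -0.80).

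The loci beyond both parents at dawn were followed at the other times, in libraries that did not choose them. Of the 10 above, 0 were above both parents at ZT6 (0.124% of all loci) and 1 at ZT15 (0.172%), and 5 of the 10 were above the mid-parent at each time. The 1 was AT2G07732, which was kept only through the level of its hybrids at ZT0. Of the 58 below, 8 were below both parents at ZT6 (0.735% of all loci) and 3 at ZT15 (0.142%). Against the mid-parent, 49 of the 58 were lower at ZT6 and 48 at ZT15, where 64.3% and 59.6% of all loci were. Their medians were -0.36 and -0.34, against -0.09 and -0.04 for all loci. Apart from AT2G07732 at ZT15, the upward departures were thus not counted again in these libraries, while most of the downward ones kept their sign at a smaller size.

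SOC1 had departures of -1.64 at ZT6 and -2.07 at ZT15. At ZT6 it was at 37.7 (Col), 5.02 (C24), 2.85 (ColxC24) and 12.4 RPKM (C24xCol), so the hybrids no longer lay on the same side of C24. SWEET17 had departures of 0.02 and -0.02, with 104, 54.3, 82.8 and 78.0 RPKM at ZT6 in Col, C24, ColxC24 and C24xCol. HDA3 had departures of -1.04 and -0.57. Of the 47 loci above the mid-parent at dawn, 4 were so at ZT6 and 6 at ZT15 (0.462% and 0.385% of all loci). Of the 608 below it, 60 were so at ZT6 and 120 at ZT15 (3.11% and 1.66% of all loci), and 300 and 528 had a departure under 0. The defence list had a median of 0.35 at ZT6 and -0.59 at ZT15.

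**Figure D5:**
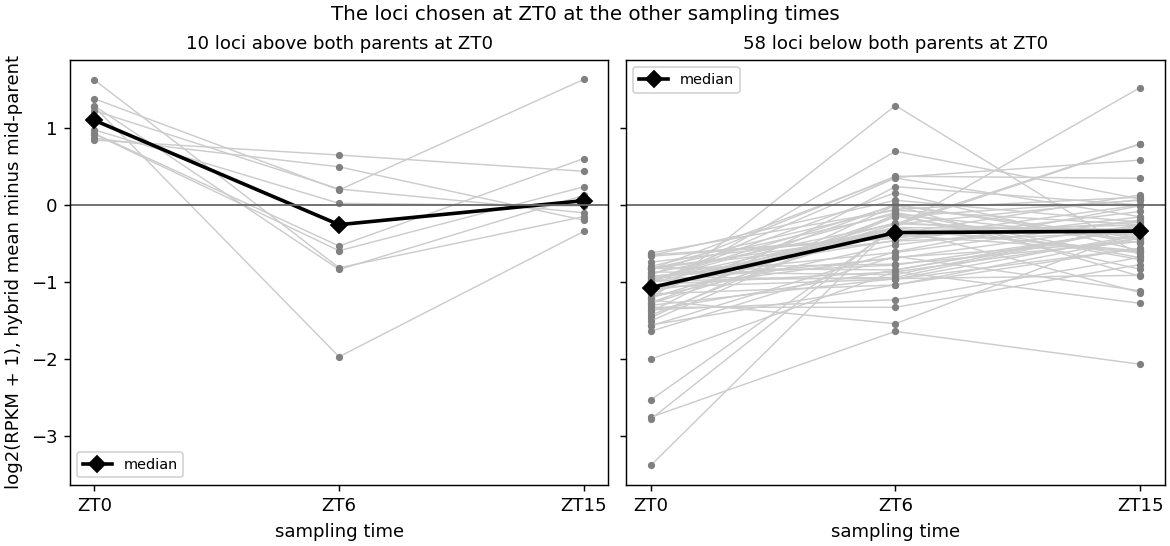
Departure of the hybrid mean from the mid-parent, log2(RPKM + 1), at 3 sampling times for the loci chosen at ZT0, 1 grey line per locus and the median in black. The 10 loci above both parents return to a median of -0.26 at ZT6 and 0.05 at ZT15, and the 58 below stay at -0.36 and -0.34.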

How the data were processed

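The deposited values are RPKM per gene model, computed by the authors, per the file headers. Reads were 84 bp long, per the labels, and the build was TAIR9, per the submitters' processing notes. Which aligner and counter were used is not given in the sources used here. How reads of C24, which differ in sequence from a build made from Col, were mapped was not tested.

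From these, the 38710 gene models were summed to 32592 loci, and those with a mean of at least 1 RPKM in the 4 ZT0 libraries were kept. The TAIR10.1 annotation gave names and had an entry for 31786 loci. No coordinates or sequences are given because the builds differ. Depth was estimated from the steps of the lowest values. Levels were compared on log2(RPKM + 1), and a fold of RPKM + 1 understates differences of low genes. With 1 library per genotype and time, loci were counted by size without a test: both hybrids at least 1.5-fold from the parents or the linear mid-parent. The members and the 25 lists (517 loci, 512 matched by name, 435 kept) were chosen with earlier results of these data known. Named nuclear loci have a mean of at least 3 RPKM. They are up to 15 above and 25 below both parents with the widest gap, up to 4 per list in each direction past 1.5-fold, and 6 at each parent's level; CCA1, LHY, TOC1, PR1, FLC and RBCS1A were named regardless, and GI, named by the same rule, was under the minimum. Other list members and loci beyond the parents were named as examples after their values were seen. Alternatives were the pseudocount, the filter, the scaling, the fold, the gene model, single hybrids and the scale of the mid-parent. Counting was tested on simulated data. Python 3.11.15 with pandas 2.3.3 and numpy 2.4.6 was used.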

Additional observations from a re-analysis of the deposited data

Results flagged for a closer look

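XTH33 and PDF1.2 are given as 2 named genes in which both hybrids departed from the mid-parent in opposite directions at different times. They were not the only named genes to change sign. LURP1 had departures of -2.21 at ZT0 and 1.54 at ZT6, and AT2G21220 of 1.28 and -0.84. The ZT6 value of LURP1 came from C24xCol alone, with ColxC24 near the mid-parent. It was at 5.31 (Col), 66.2 (C24), 36.6 (ColxC24) and 301 RPKM (C24xCol). The differences between times were not tested because each genotype had 1 library at a time. XTH33 had a departure of 1.27 at ZT0 and -1.97 at ZT6. At ZT6 it was at 1.499 (Col), 9.93 (C24), 0.933 (ColxC24) and 0.518 RPKM (C24xCol). PDF1.2 had a departure of -1.67 at ZT0 and 2.09 at ZT15, where it was at 0.0853 (Col), 0.0923 (C24), 1.34 (ColxC24) and 8.16 RPKM (C24xCol). Both parents were near the floor there, as 1 read on 1 kb was worth 0.0374 RPKM in Col and 0.0404 in C24.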

How the results depend on the processing

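No paired analysis was possible because each genotype had 1 library at a time and no replicate numbers to share. The counts of loci depended on the settings, and so did the balance of some. Loci at the lower parent's level outnumbered those at the higher one, 37 to 19, but not with a pseudocount of 0.1 (29 to 39), median-of-ratios scaling (25 to 31) or quantile normalization (24 to 28). No named gene counted against the mid-parent changed sign; CCA1, which was not counted, was at 0.07, and at -0.09 by ColxC24 alone. With a pseudocount of 0.1, 22 loci were above and 136 below both parents, 90 above and 926 below the mid-parent; with 0.5, 95 were below both parents, 73 above the mid-parent and 29 at the higher parent's level. With a mean of at least 5 RPKM these counts were 6, 37, 30 and 370, with 14 at the lower and 11 at the higher parent's level. Median-of-ratios scaling gave 23 above and 31 below both parents, 92 above the mid-parent and 31 at the higher parent's level, and quantile normalization gave 24, 24, 97 and 377, with 24 at the lower parent's level. With a 2-fold rule, 3 loci were above and 11 below both parents, 7 above and 146 below the mid-parent, and 140 and 101 within 2-fold of the lower and the higher parent. By ColxC24 alone the counts were 44, 285, 167 and 1651, with 179 and 36 at the lower and the higher parent, and by C24xCol alone 70, 447, 184 and 1354, with 44 at the higher parent. A log2 mid-parent gave 151 above and 294 below. Fewer genes or a single hybrid account for part of this by construction; the cause was not tested otherwise. Omitting the filter, using the gene model with the highest mean or only nuclear loci kept each count within 1.5 times. Of 65 named genes, 4 (ERD10, SUC1, AT5G15550 and CO) fell short of 1.5-fold from the mid-parent under both other scalings, and FLC, CO and AT3G46210 did with the gene model of the highest mean. At low levels, depth limits the values: 1 read on 1 kb is worth 0.0596 RPKM in Col.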

Other observations

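Groups of loci sharing a word in their annotated product were described after their values were seen. Of 264 loci whose product starts with ribosomal protein, 227 had a departure under 0 (73.4% of all loci), with a median of -0.27. With median-of-ratios factors 198 did (54.3% of all loci), with a median of -0.15. The medians of all loci were -0.13 and -0.02. Of 46 loci whose product names rRNA, the nucleolus or ribosome biogenesis, 39 were under 0 (73.4% of all loci), with a median of -0.38. With median-of-ratios factors 35 were (54.3% of all loci), with a median of -0.28. Of the 46, 1 was counted below the mid-parent (3.6% of all loci). At ZT6 their median was -0.52 and at ZT15 -0.20. Of 22 DEAD box helicase loci, 2 were below both parents (0.344% of all loci), with a median of -0.25.

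Of 27 cysteine-rich receptor-like kinase loci, 6 were below the mid-parent at ZT0 (3.6% of all loci), with a median of -0.53, and their median was 0.33 at ZT6. Of 33 WRKY loci, which encode transcription factors of defence and ageing, 9 were below the mid-parent (3.6% of all loci), with a median of -0.34 at ZT0 and 0.02 at ZT6. Of 40 SAUR-like loci, 2 were above both parents (0.0593% of all loci), while the median of the group was -0.12, close to that of all loci.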
